A study of Mus musculus with 12 samples.

Results

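Integrins are receptors of 1 α and 1 β chain that hold a cell to matrix or to another cell and signal across the membrane. In macrophages the β2 chain pairs with αL, αM or αX to make the leukocyte integrins, which bind ICAM molecules, fibrinogen and complement fragments. The αv chain pairs with β3 or β5 and binds vitronectin and bridging proteins on apoptotic cells, and the β1 chain pairs with α4 or α5 for adhesion to VCAM-1 and fibronectin. FRA-1, encoded by Fosl1, is a Fos family protein that binds DNA in a dimer with a Jun protein, called AP-1. The genes described here are 10 integrin genes of macrophages out of 21883 protein-coding genes in the RefSeq annotation (Itgam, Itgax, Itgal, Itgav, Itga4, Itga5, Itgb1, Itgb2, Itgb3 and Itgb5). They form a fixed list of symbols. No value entered the rule, but the list was chosen with earlier results of these data known.

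FRA-1 binding was measured by chromatin immunoprecipitation and sequencing (ChIP-seq) in adherent peritoneal macrophages of mice aged 8 weeks. There were 3 replicates left unstimulated, 3 with LPS, the endotoxin of Gram-negative bacteria, for 1 h, and 3 with apoptotic cells for 1 h at a ratio of 1 to 5. The series also holds 3 pooled input samples, for which no table was used here. The sources differ on the animals and the treatment. The sample records name a 129/C57Bl6 background, thioglycollate elicitation with harvest after 72 h, and LPS at 1 µg/mL, whereas the design text names C57Bl/6 mice, lavage without elicitation, and LPS at 10 µg/mL. The records give the same 3 mouse IDs in each condition, the design text gives 9 animals, and the table columns name no mouse, so the p-values measure the spread between samples as deposited. No genotype is named for these mice. A peak table holds no RNA level, so the cell type could not be checked against its markers.

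A peak is a stretch of the genome that was called as enriched in 1 replicate. Its score is 10 times the negative log10 of the p-value of that call, so a higher score means a smaller p, and scores started at 50.01. Scores are given as deposited and were not scaled between replicates. A peak belonged to an integrin gene if it overlapped the gene body with 20 kb on either side, or carried that gene's symbol in the deposited table. Of 375170 peaks in the 9 replicates, 196 belonged to an integrin gene, each of them to 1 gene only. The number of reads behind the peaks is unknown. All peaks together numbered 20981 to 28314 per unstimulated replicate, 39728 to 63010 with LPS and 31501 to 79474 with apoptotic cells. The replicates also differed in their smallest peak, which was 104 to 116 bp in 4 of them (unstimulated 3, LPS 1, LPS 3 and apoptotic cells 3, here the narrow class) and 158 to 172 bp in the other 5 (the wide class). LPS replicate 2 stood apart from the other LPS replicates in this class and in most of the values below, and results that rest on it are also given without it. The record of 1 LPS sample states that its raw data cannot be had, and which table column holds that sample is not given.

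The sequence that AP-1 is best known to bind is TGANTCA. Promoters, taken as 250 bases before to 50 after the transcription start site in RefSeq (GRCm38.p6), were listed for 7 of the 10 genes (Itgam, Itgax, Itgav, Itga4, Itga5, Itgb1 and Itgb5). None of the 7 held a FRA-1 peak in any replicate, and 1538 of all 32851 promoters did (4.68%). At this share 7 promoters are too few to tell integrin genes from other genes. Itgax, the αX (CD11c) gene, was the only one of the 7 with TGANTCA, at 56 bases before its start site, and 7.81% of all promoters held this motif. The cAMP-response variant TGACGTCA was in 0 of the 7 and in 1.79% of all promoters. Both motifs read the same on either strand, and neither contains the other. The Itgax promoter up to its start site (plus strand, chr7:128129300-128129549, mm10) is shown because it is the one integrin promoter with the motif, which is in capitals.
Itgax promoter: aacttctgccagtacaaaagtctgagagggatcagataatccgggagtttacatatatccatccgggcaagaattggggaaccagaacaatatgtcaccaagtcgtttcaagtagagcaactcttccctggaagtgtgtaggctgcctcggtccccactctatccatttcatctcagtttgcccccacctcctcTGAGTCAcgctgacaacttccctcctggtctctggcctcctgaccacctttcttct

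The integrin genes held more FRA-1 peaks after either stimulus in most replicates, and the replicates of each stimulus were far apart. The 3 unstimulated replicates had 10, 6 and 11 integrin peaks, the LPS replicates had 32, 11 and 44, and the replicates with apoptotic cells had 26, 12 and 44. One replicate of each stimulus, the second, was thus as low as the unstimulated ones or close to them. The means were 9.0 ± 2.65 unstimulated, 29.0 ± 16.7 with LPS and 27.3 ± 16.0 with apoptotic cells (SD, n = 3 each), which made ratios of 3.22 and 3.04. No test was made on these sums.

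**Figure D1:**
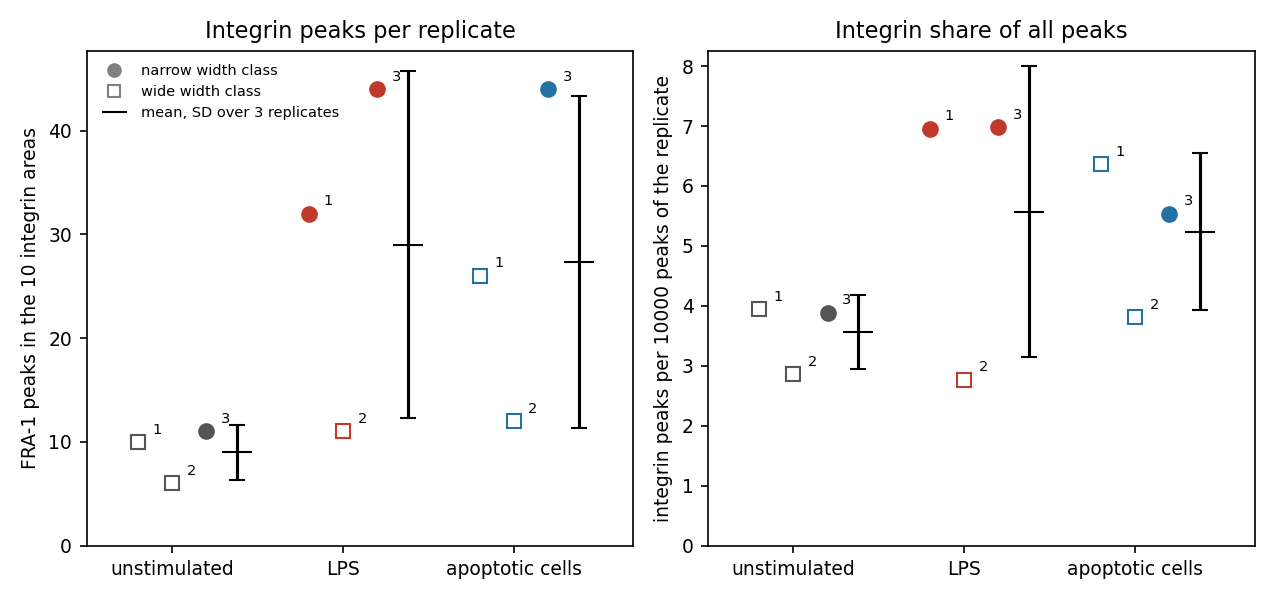
FRA-1 peaks in the areas of the 10 integrin genes (left, number of peaks) and the same per 10000 peaks of the replicate (right), by condition. Each point is 1 numbered replicate, filled for the narrow and open for the wide width class, and bars are mean ± SD of 3 replicates. LPS replicate 2 had 11 integrin peaks against 32 and 44 in the other LPS replicates.

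Other genes also held more peaks after stimulation, by a factor that was smaller in the mean. The mean number of peaks per gene area over all protein-coding genes was 2.12 times as high with LPS and 2.05 times as high with apoptotic cells. Over the 7795 genes with a body as long as those of the integrin genes (21132 to 119674 bp) the ratios were 2.18 and 2.02. The integrin ratios of 3.22 and 3.04 had SDs of 2.08 and 1.99. An SD of a ratio is here carried over from the SDs of the replicates in both groups. The ratios of the other genes lay within these SDs. They come from the same 9 replicates, so their spread is shared and the difference between the ratios was not tested. Per 10000 peaks of a replicate, integrin peaks numbered 3.95, 2.86 and 3.89 unstimulated, 6.96, 2.77 and 6.98 with LPS, and 6.37, 3.81 and 5.54 with apoptotic cells. LPS replicates 1 and 3 lay above all unstimulated replicates on this scale, and LPS replicate 2 lay below them all. Of the replicates with apoptotic cells, the second lay within the unstimulated range.

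**Figure D2:**
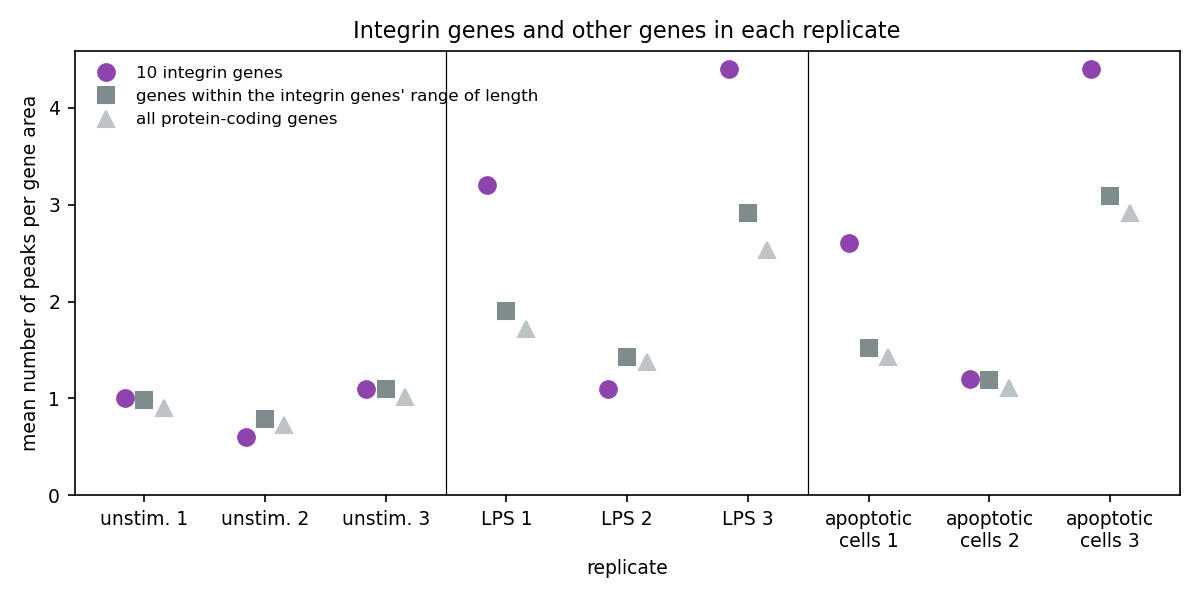
Mean number of FRA-1 peaks per gene area in each of the 9 replicates, for the 10 integrin genes (circles), the 7795 genes within their range of length (squares) and all 21883 protein-coding genes (triangles). The integrin genes lay near the other genes in unstimulated 1 (1.0 peaks per gene against 0.983 and 0.904) and unstimulated 3 (1.1 against 1.1 and 1.02). In unstimulated 2 they lay below them (0.6 against 0.791 and 0.73). They lay above the other genes in LPS 1 and LPS 3 (3.2 and 4.4) and in apoptotic cells 1 and 3 (2.6 and 4.4). They lay below the other genes in LPS 2 (1.1 against 1.43 and 1.38) and level with them in apoptotic cells 2 (1.2 against 1.19 and 1.11).

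Both stimuli had the higher mean number of peaks within each width class, by unequal amounts. In the narrow class the mean was 11 integrin peaks unstimulated (1 replicate), 38.0 with LPS (2) and 44.0 with apoptotic cells (1). In the wide class it was 8.0 unstimulated (2 replicates), 11 with LPS (1) and 19.0 with apoptotic cells (2). Per 10000 peaks, the narrow class had 3.89, 6.97 and 5.54 in the same order, and the wide class 3.40, 2.77 and 5.09, where LPS was the lowest. With the 20981 highest-scoring peaks of every replicate, the ratios were 1.30 with LPS and 1.22 with apoptotic cells (SD 0.625 and 0.254). No ratio over all genes is given for this setting. The part of peak number and width class in the 3-fold ratios was not tested beyond these values.

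By gene, the density over the 9 replicates ran from 3.24 ± 3.58 peaks per 100 kb and replicate for Itgb2 (SD, n = 9) through 3.20 for Itga5, 2.65 for Itgb1, 2.50 for Itgav, 2.46 for Itga4, 2.39 for Itgal, 2.32 for Itgam, 1.81 for Itgb5 and 1.74 ± 1.17 for Itgb3 to 0.364 ± 0.721 for Itgax. Each step between neighbours from Itgb2 to Itgb3 was at most 0.546 and well within the SDs, so only the gap of 1.37 between Itgb3 and Itgax exceeded the SD of both. Over all 9 replicates the median integrin gene had 21.8 peaks per 100 kb, the median of genes within the same range of length 15.3 and that of all genes 14.5.

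**Figure D3:**
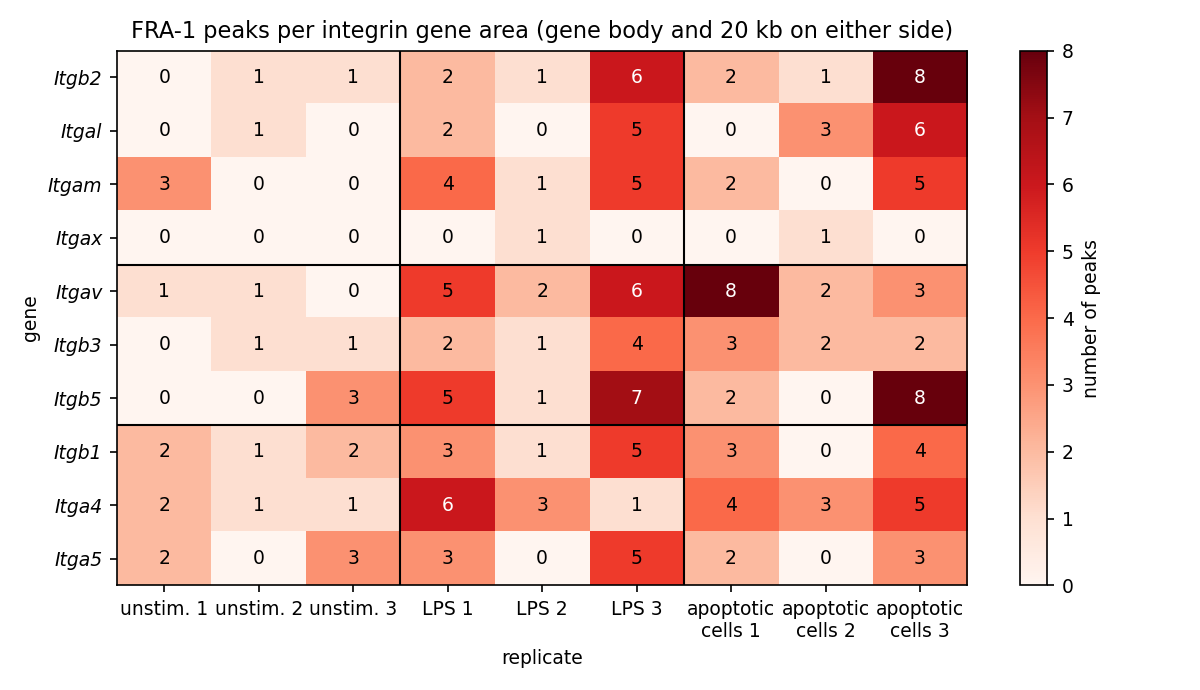
Number of FRA-1 peaks in the area of each integrin gene (rows, grouped as β2, αv and β1 integrins) in each of the 9 replicates (columns). Itgav, with 5, 2 and 6 peaks after LPS against 1, 1 and 0, was the only gene whose LPS and unstimulated replicates did not overlap, and Itgax had 1 peak in each of 2 replicates.

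Of the leukocyte integrins, Itgb2, which encodes the shared β2 chain (CD18), lies on chromosome 10 at 77530329 to 77565708 (mm10; NCBI Gene 16414). It had 0, 1 and 1 peaks unstimulated, 2, 1 and 6 with LPS and 2, 1 and 8 with apoptotic cells. The highest counts were those of LPS 3 and apoptotic cells 3, and the conditions overlapped at 1 peak. The difference in means was 2.33 peaks with LPS and 3.0 with apoptotic cells (exact permutation test, two-sided, p = 0.3 for each, n = 3 against 3). Only 6 of its 22 peaks lay in the gene body. The region of Itgb2 found in most replicates, at chr10:77518689-77518863, lay 11466 bp beyond the lower end of the gene and carried the symbol of its neighbour Fam207a. No peak was listed there in unstimulated 1 and 2, and unstimulated 3 scored 151. With LPS the scores were 291, 127 and 365, and with apoptotic cells 212, 134 and 111. This region thus had a peak in all 6 stimulated replicates and in 1 of 3 unstimulated ones. The highest mean score was that of a single peak of LPS 3 in the gene body (251, chr10:77535918-77536029).

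Itgal, which encodes the αL chain of LFA-1, lies on chromosome 7 at 127296139 to 127335137 (NCBI Gene 16408). It had 0, 1 and 0 peaks unstimulated, 2, 0 and 5 with LPS and 0, 3 and 6 with apoptotic cells. Each stimulus thus had 1 replicate with no peak. The differences were 2.0 peaks for LPS and 2.67 for apoptotic cells (exact permutation test, two-sided, p = 0.4 for each, n = 3 against 3). Its deposited symbol stood on 3 peaks, all of them after LPS. Of these, 2 formed the region at chr7:127292393-127292673, 3466 bp beyond the lower end, with scores of 108 in LPS 1 and 192 in LPS 3, and the third, with the highest score of the gene (227, LPS 3), lay at chr7:127295430-127295539, 600 bp beyond that end.

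Itgam encodes the αM chain (CD11b), a common surface marker of macrophages, and lies on chromosome 7 at 128062640 to 128118491 (NCBI Gene 16409). It had 3, 0 and 0 peaks unstimulated, 4, 1 and 5 with LPS and 2, 0 and 5 with apoptotic cells. The 3 unstimulated peaks were all in replicate 1, so that both stimuli overlapped with it (differences of 2.33 and 1.33 peaks; exact permutation test, two-sided, p = 0.2 and p = 0.7, n = 3 against 3). The gene body held 18 of its 20 peaks, and the median score of 93.8 was the lowest of the 10 genes. Among the 7 genes with a listed start site, Itgam had the peak nearest to it, centred 696 bp into the gene in unstimulated 1, with a score of 112. Its gene body held 3 regions that several replicates shared. The one at chr7:128068997-128069344 had scores of 208 in LPS 3, 71.9 in apoptotic cells 1 and 147 in apoptotic cells 3. By percentile within the replicate these were 56.6, 8.77 and 76.2. It was the only integrin region with peaks in at least 2 replicates with apoptotic cells and none unstimulated. The others, at chr7:128070108-128070245 (116 and 208) and chr7:128073118-128073323 (82.6 and 84.4), had peaks in LPS 1 and LPS 3 only. The highest score of the gene was a single peak of LPS 3 (227, chr7:128077732-128077841).

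Itgax, next to Itgam on chromosome 7 at 128129526 to 128150657 (NCBI Gene 16411), encodes the αX chain (CD11c), a marker of dendritic cells and some macrophages. It had 1 peak in LPS 2 (score 118) and 1 in apoptotic cells 2 (149, chr7:128144115-128144306), both in the gene body, and none in the other 7 replicates (difference of 0.333 peaks for each stimulus; exact permutation test, two-sided, p = 1.0, n = 3 against 3). The nearest of them lay 12449 bp from the start site, so no peak was listed over the TGANTCA of its promoter. The areas of Itgam and Itgax overlap, but no peak fell in both.

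Among the αv integrins, Itgav itself, on chromosome 2 at 83722303 to 83806917 (NCBI Gene 16410), had the most peaks of the 10 genes, 28 in all. There were 1, 1 and 0 unstimulated, 5, 2 and 6 with LPS and 8, 2 and 3 with apoptotic cells. The stimulated replicates did not overlap with the unstimulated ones under either stimulus, by 3.67 peaks in the mean each time (two-sided exact permutation test, p = 0.1, which is the lowest value for 3 against 3). With only peaks of a score of 100 or more the counts were 1, 1 and 0, then 3, 1 and 5, then 8, 1 and 2, which overlapped. With equal numbers of top-scoring peaks, LPS had 0, 0 and 0 against 1, 1 and 0, so the LPS difference turned to -0.667. In the gene body alone the counts with apoptotic cells were 7, 1 and 2 and overlapped (exact permutation test, two-sided, p = 0.3, also with 5 kb flanks). The gene body held 21 of the 28 peaks. All 28 fell into 24 regions, of which 3 were found in more than 1 replicate. They were at chr2:83715597-83715710, upstream (LPS 1 with 132, LPS 3 with 147), chr2:83743676-83743911 (LPS 3 with 225, apoptotic cells 1 with 138) and chr2:83758006-83758180 (LPS 1 with 132, LPS 3 with 184, apoptotic cells 1 with 126). The region with the highest mean score, at chr2:83741101-83741321, was a single peak of unstimulated 1 (225).

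Itgb3, which encodes the β3 chain of the vitronectin receptor, lies on chromosome 11 at 104608000 to 104670476 (NCBI Gene 16416). It had 0, 1 and 1 peaks unstimulated, 2, 1 and 4 with LPS and 3, 2 and 2 with apoptotic cells. The replicates with apoptotic cells did not overlap with the unstimulated ones, the LPS replicates did (difference of 1.67 peaks for each; exact permutation test, two-sided, p = 0.1 for apoptotic cells and p = 0.3 for LPS, n = 3 against 3). Its highest mean score was that of chr11:104591428-104591657, 16343 bp beyond the lower end, with 245 in LPS 1, 345 in LPS 3 and 154 in apoptotic cells 2.

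Itgb5, which encodes the β5 chain and is the longest of the 10 genes, lies on chromosome 16 at 33829665 to 33949338 (NCBI Gene 16419). It had 0, 0 and 3 peaks unstimulated, 5, 1 and 7 with LPS and 2, 0 and 8 with apoptotic cells. The replicates of the narrow class were the high ones within each condition (differences of 3.33 and 2.33 peaks; exact permutation test, two-sided, p = 0.2 for LPS and p = 0.7 for apoptotic cells, n = 3 against 3). The highest-scoring integrin peak lay upstream of Itgb5, in the region at chr16:33824811-33825262, 4403 bp before the gene. Scores there were 142 in unstimulated 3, 319 in LPS 1, 522 in LPS 3 and 56.5 in apoptotic cells 1, with no peak listed in the others. The LPS 3 peak ranked at percentile 99.1 of the scores of its replicate and the LPS 1 peak at 94.1, against 44.4 in unstimulated 3 and 2.45 in apoptotic cells 1. It carried the symbol of Itgb5. At chr16:33859508-33859624, in the gene body, unstimulated 3 scored 151, LPS 1 and 3 scored 223 and 305, and apoptotic cells 3 scored 184. By percentile within the replicate these were 58.4, 83.9, 83.3 and 91.6, so apoptotic cells 3 stood highest. The region at chr16:33967702-33967829, 18364 bp past the 3' end and assigned to Umps, had the same 4 replicates with 132, 194, 350 and 124. LPS 1 and LPS 3 shared a further region in the gene body, at chr16:33840524-33840642 (157 and 136).

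Of the β1 integrins, Itgb1, on chromosome 8 at 128685654 to 128733579 (NCBI Gene 16412), encodes the β1 chain. It had 2, 1 and 2 peaks unstimulated, 3, 1 and 5 with LPS and 3, 0 and 4 with apoptotic cells, so the conditions overlapped (differences of 1.33 and 0.667 peaks; exact permutation test, two-sided, p = 0.5 and p = 0.8, n = 3 against 3). Its median score of 173 was the highest of the 10 genes. The region at chr8:128679340-128679514, 6140 bp upstream, was found in 6 replicates, with 144 and 232 in unstimulated 2 and 3, 366 and 343 in LPS 1 and 3, and 201 and 190 in apoptotic cells 1 and 3. Each condition lacked a peak there in 1 replicate. The LPS scores were the highest. At the regions found in all 9 replicates, the median scores of LPS 1 and 3 were 386 and 395, against 184 to 343 in the others. Over the integrin peaks the medians were 127 in LPS 1 and 190 in LPS 3, against 97.8 to 152 in the others. By percentile within its replicate, LPS 1 (96.4) stood highest at this upstream region. LPS 3 (88.0) lay below apoptotic cells 3 (93.2) and near apoptotic cells 1 (87.4). Unstimulated 2 and 3 stood lowest, at 51.1 and 85.9. Itgb1 was one of 5 integrin genes whose own symbol stood on a peak, in its case on 5 peaks of the gene body. The highest mean score was a single peak of LPS 3 in the gene body (265), at chr8:128689374-128689483.

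Itga4, which encodes the α4 chain of VLA-4, lies on chromosome 2 at 79255426 to 79333114 (NCBI Gene 16401). It was the only one of the 10 genes with a peak in every replicate, with 2, 1 and 1 unstimulated, 6, 3 and 1 with LPS and 4, 3 and 5 with apoptotic cells. The replicates with apoptotic cells lay above all unstimulated ones, the LPS replicates met them at 1 peak (differences of 2.67 and 2.0 peaks; exact permutation test, two-sided, p = 0.1 and p = 0.4, n = 3 against 3). Here LPS 3, the LPS replicate with the most peaks in all, had the fewest. The peak present in every replicate was at chr2:79333591-79333845, 477 bp past the 3' end and within Cerkl, a gene that overlaps the end of Itga4. Its scores were 162, 244 and 331 unstimulated, 321, 166 and 265 with LPS and 255, 240 and 290 with apoptotic cells. The means of 246 ± 84.7, 251 ± 78.4 and 262 ± 25.7 (SD, n = 3) differed from the unstimulated mean by 5.03 with LPS and 15.9 with apoptotic cells, less than the SD of each group (exact permutation test, two-sided, p = 0.9 and p = 0.8). The highest score of the gene, 349, was that of a single peak in apoptotic cells 2 in the gene body, at chr2:79320176-79320366. The peak nearest to the start site, 4446 bp upstream, was in LPS 1 and carried the symbol of Itga4.

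Itga5, which encodes the α5 chain of the fibronectin receptor, lies on chromosome 15 at 103344286 to 103366791 (minus strand; NCBI Gene 16402). It had 2, 0 and 3 peaks unstimulated, 3, 0 and 5 with LPS and 2, 0 and 3 with apoptotic cells. The values of the unstimulated replicates and of those with apoptotic cells were thus the same, and the second replicate of every condition had none (differences of 1.0 and 0.0 peaks; exact permutation test, two-sided, p = 0.8 and p = 1.0, n = 3 against 3). In the gene body, chr15:103360624-103360938 had scores of 134 in LPS 1, 265 in LPS 3 and 91.3 in apoptotic cells 1, and chr15:103362221-103362331, with the highest mean score of the gene, had 173 in LPS 1 and 236 in LPS 3. Upstream, chr15:103382337-103382636 scored 107 in unstimulated 3, 136 in LPS 1, 188 in LPS 3 and 129 in apoptotic cells 1.

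**Figure D4:**
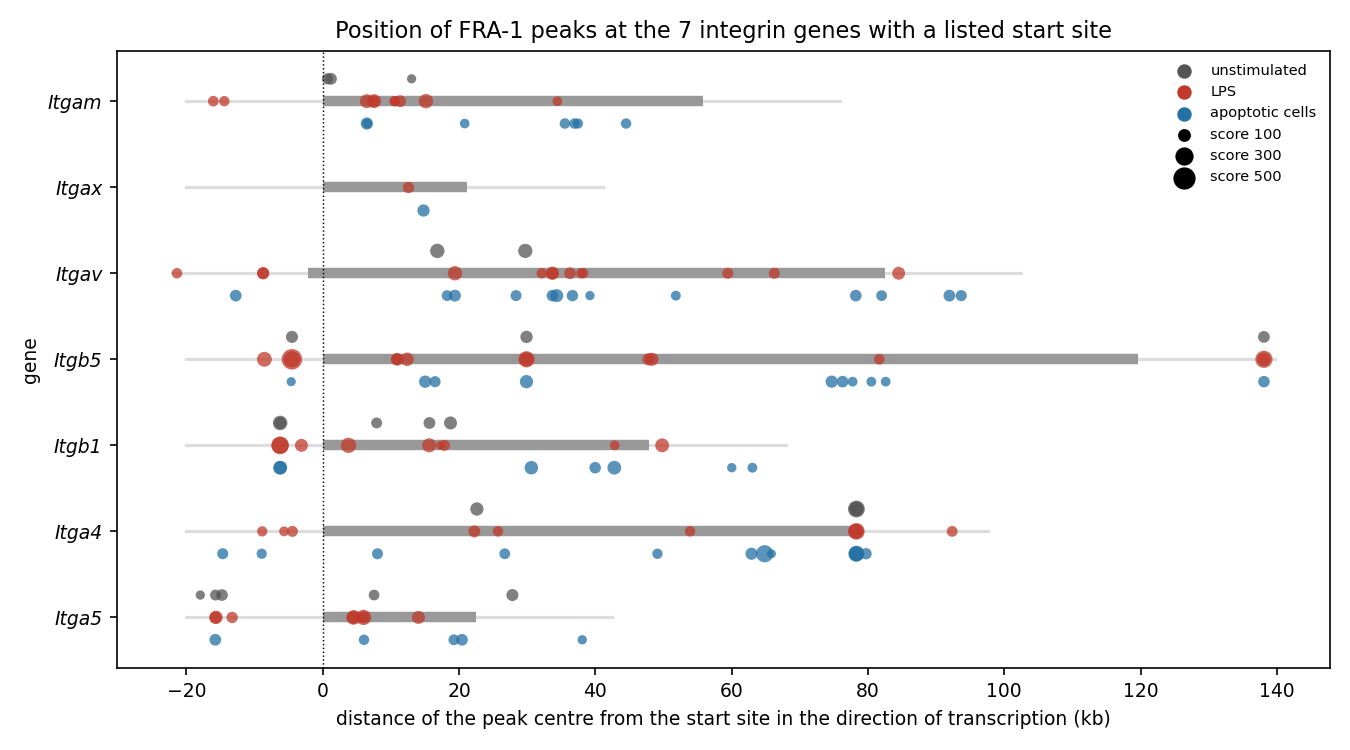
Distance of each FRA-1 peak centre from the transcription start site, in kb in the direction of transcription, at the 7 integrin genes with a listed start site. Thick lines are gene bodies, thin lines the 20 kb on either side, colours the conditions and point areas the scores. Peaks lay along the gene bodies and flanks, and none lay in one of the 7 promoters (4.68% of all promoters held a peak). The highest score (522, LPS 3) lay upstream of Itgb5.

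Counted over the genes, 1 of 10 (Itgav) had more peaks in every LPS replicate than in every unstimulated one, which held for 9.87% of all protein-coding genes and 11.3% of those within the integrin genes' range of length. For apoptotic cells 3 of 10 did (Itgav, Itga4 and Itgb3), against 6.57% and 7.56%. Both comparisons share the unstimulated replicates. Fewer replicates leave every gene less room for overlap, so the counts without a replicate stand beside their own share of all genes. Without LPS 2, 7 of 10 genes did not overlap (25.8% of all genes), and 8 of 10 when unstimulated 3 was left out as well (34.6%). The LPS count was 2 of 10 without unstimulated 1 (with Itgam; 14.2%), unstimulated 3 (with Itgb5; 16.6%) or LPS 3 (with Itga4; 12.2%). That for apoptotic cells was 5 of 10 without apoptotic cells 2 (with Itgb1 and Itgb2; 19.3%). It was 0 of 10 in gene bodies alone (3.14% of all genes, 4.21% within the range of length). With 5 kb flanks it was 1 of 10, Itga4 (3.87% and 5.07%). No integrin gene was without overlap for either stimulus with a score of at least 100 or with equal numbers of peaks. For the score of at least 100 no share of all genes is given, so integrin genes cannot be set against other genes there. With equal numbers of peaks, 1.78% of all genes were without overlap for LPS and 1.37% for apoptotic cells (2.31% and 1.54% within the range of length). The mean was higher with LPS in 10 of 10 genes (74.1% of all genes) and with apoptotic cells in 9 of 10 (73.4%), Itga5 being the exception, by a median of 2.0 peaks for each stimulus against 0.667 over all genes. Within the integrin genes' range of length these shares were 79.8% and 78.4%, with a median of 1.0 peak. With the same number of top-scoring peaks in every replicate, the mean was higher with LPS in 4 of the 10 genes, equal in 3 and lower in 3 (median 0.0). It was then higher in 37.8% of all genes and 41.2% of those within the range of length. For apoptotic cells it was then higher in 5 of the 10 genes, equal in 3 and lower in 2 (median 0.167), against 37.7% and 40.0% higher. No exact p can pass 0.05 in this design, and 0 of 21883 genes had an unadjusted p below 0.05 in either comparison. After Benjamini-Hochberg adjustment over all genes the smallest p of the exact permutation test was 0.98 for LPS and 1.0 for apoptotic cells.

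Peaks of different replicates that overlapped by at least 1 bp were merged into 144 integrin regions, of which 120 were found in 1 replicate only. The other 24 (16.7%) were found in 2 or more, as were 10.3% of all 300608 regions. Regions shared by LPS replicates were those of LPS 1 and LPS 3, which met in 17 regions, 15 of them without LPS 2. In 10 regions, 2 or more LPS replicates and none of the unstimulated ones had a peak, of 84 integrin regions found in these conditions (11.9%, against 7.05% of all such regions). They are the ones named above for Itgam (2), Itgav (2), Itga5 (2), Itgal, Itgb3 and Itgb5, and one 7191 bp beyond the lower end of Itgb2, at chr10:77523029-77523138 (LPS 1 with 96.6, LPS 3 with 172). All 10 were peaks of LPS 1 and LPS 3, so the count was 0 without either of these replicates, and 7 of the 10 had no peak with apoptotic cells. For apoptotic cells 1 of 93 regions (1.08%) met the same rule, the one in Itgam, against 1.18% of all regions, and none did without apoptotic cells 1 or 3. Only 2 integrin regions had peaks in at least 2 unstimulated replicates, and both also had peaks with LPS. With so few regions the reverse rule could hardly be met, and no share of all regions is given for it.

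**Figure D5:**
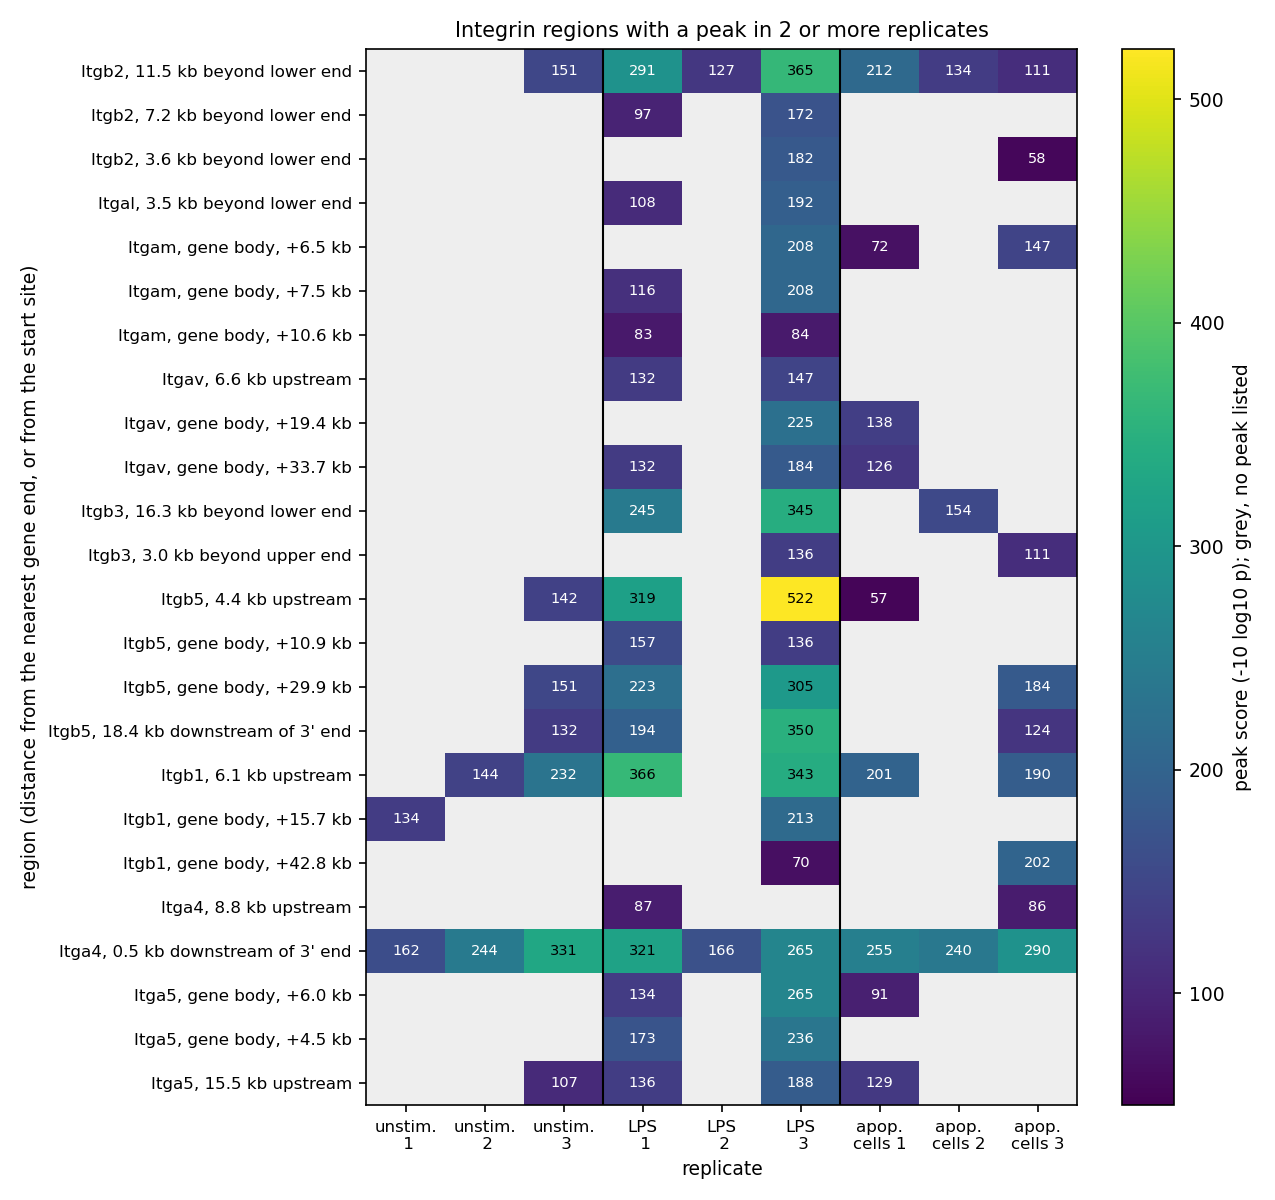
Scores of the 24 integrin regions with a peak in 2 or more replicates (rows, with gene and place) in each of the 9 replicates (columns); grey means that no peak was listed. LPS 3 had a peak in 23 of the 24, LPS 2 in the regions near Itgb2 and Itga4, and the region past the 3' end of Itga4 was the only one filled in all 9.

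Of the 196 integrin peaks, 110 were in a gene body, 30 upstream and 23 past the 3' end. For Itgal, Itgb2 and Itgb3, whose direction was not listed, 23 more lay beyond the lower and 10 beyond the upper end. The authors' gene column named an integrin gene for 14 of them, another gene for 14 and no gene for 168.

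The partners of integrins were described by the same counts. Of 17 other integrin subunits, 2 had more peaks in every LPS than in every unstimulated replicate. Itgb4, the β4 chain of epithelia, had 0, 0 and 0 against 2, 2 and 4, and Itgb6, another αv partner, had 1, 1 and 1 against 2, 3 and 3. Itga2, a collagen receptor chain, was the reverse, with 2, 3 and 4 unstimulated and 1, 1 and 1 with LPS (exact permutation test, two-sided, p = 0.1 for each of the 3). For counts of lower genes, here and in the next list, no share of all genes is given. None of the 17 was higher in every replicate with apoptotic cells. Among 23 activators and adaptors, 5 were higher with LPS, 1 with apoptotic cells and none lower. Lims1 (PINCH1, the partner of integrin-linked kinase) had 1, 0 and 2 against 9, 5 and 12 with LPS, and Pxn, the focal adhesion adaptor paxillin, had 0, 1 and 1 against 6, 3 and 7. Tln2, a talin that activates integrins, had 0, 4 and 3 against 5, 8 and 9 with LPS, and Rap1a, the GTPase upstream of talin, had 2, 3 and 1 against 4, 4 and 9 with apoptotic cells. Of 13 signalling genes, 3 were higher with LPS and 3 with apoptotic cells. Crk, an adaptor downstream of focal adhesions, had 2, 1 and 2 unstimulated, 6, 4 and 10 with LPS and 3, 4 and 4 with apoptotic cells. Rac1, the GTPase of lamellipodia, had 0, 1 and 0, then 5, 5 and 3, then 3, 3 and 3. Lyn, a Src family kinase, had 0, 0 and 1 against 4, 3 and 9 with LPS, and Src had 0, 0 and 0 against 1, 2 and 3 with apoptotic cells. Among 13 ligands none was higher with LPS and 1 with apoptotic cells, Tnc (tenascin C), with 1, 1 and 0 against 2, 2 and 11. Each of these pairs without overlap had p = 0.1 in the exact permutation test (two-sided), the smallest possible, and the shares of the 4 lists for LPS (11.8%, 21.7%, 23.1% and 0.0%) stand beside 9.87% of all genes, and those for apoptotic cells (0.0%, 4.35%, 23.1% and 7.69%) beside 6.57%. The median differences of the lists, in the same order, were 1.67, 1.0, 0.667 and 1.33 peaks for LPS and 1.0, 0.333, 2.0 and 0.333 for apoptotic cells, against 0.667 over all genes for each.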

How the data were processed

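The authors called FRA-1 peaks in each replicate and deposited 1 table per condition, 3 in all, without a header. Each row is a genomic segment with a score for each of 3 replicates (-1 for no peak), the number of replicates, the sum, and a gene symbol where one was assigned. The deposited score expresses a peak's p-value on the Phred scale. The submitters' processing notes name BWA 0.7.14, bedtools and mm10 (GRCm38), and the peak caller of the deposited tables is not given in the sources used here (the study's methods name MACS2 for a later re-analysis of the reads). The columns name no mouse, so replicates are numbered by their place in the table and no number pairs conditions. The 3 pooled inputs have no table that was used here. The number of reads behind a peak is unknown, so no interval for counting error can be given.

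Adjoining segments of equal score were joined into peaks (435950 rows gave 375170 peaks), and peaks of the 9 replicates that overlapped by 1 bp or more were merged into regions. On simulated tables this rebuilding was tested and recovered 9567 of 9567 peaks and 1500 of 1500 gene counts. Simulated peaks of the same replicate never touched and no row was repeated. Touching peaks of equal score, which would be joined, and repeated rows were therefore not tested. A peak was given to a gene if it overlapped the RefSeq gene body with 20 kb on either side or carried its symbol. For each gene, the number of peaks per replicate was compared by an exact permutation test, two-sided, whose smallest p for 3 against 3 is 0.1. Fold changes on reads were not fitted, since the tables hold none. The share of all 21883 protein-coding genes was computed in the same way, for the rules and settings where a share is printed. Promoter sequences came from RefSeq (GRCm38.p6). The software was matplotlib 3.10.9, scipy 1.17.1, pandas 2.3.3 and numpy 2.4.6 under Python 3.11.15.

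The 10 integrin genes and the 4 lists of partners were chosen with earlier results of these data known. All 10 genes are named, of each list at most 4 genes (the largest differences among those without overlap), and of the regions those in all 9 replicates, those in at least 2 replicates of a stimulus and none unstimulated, and the region with the highest mean score of each gene. Further regions shared by several replicates, for Itgb1, Itgb2, Itgb5, Itgav and Itga5, were named after their values were seen. Alternatives were gene body alone, 5 kb flanks, the deposited symbol alone, a score of at least 100, equal numbers of peaks (20981), a shared overlap of 50%, and leaving out each replicate. The width classes, and leaving out LPS 2 with unstimulated 3, were added after the data were seen.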

Additional observations from a re-analysis of the deposited data

How the results depend on the processing

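No paired analysis was possible because the table columns carry no mouse label, so a replicate block could not be fitted. Both ratios of integrin peaks stayed above 1 in every alternative except that of deposited symbols alone, where 1.0, 3.33 and 0.333 peaks per replicate were counted (unstimulated, LPS, apoptotic cells). The ratio for apoptotic cells was then 0.333 and the difference for Itgb1 -0.667, with 0.0 genes without overlap for either stimulus, 1.0 shared LPS region and 0.0 for apoptotic cells. Gene bodies alone gave 4.67 unstimulated peaks, 0.0 genes for apoptotic cells (3.14% of all genes) and 6.0 LPS regions. With 5 kb flanks there were 6.0 unstimulated peaks and 1.0 gene for apoptotic cells (3.87% of all genes). With a score of at least 100, the genes without overlap numbered 0.0 for both stimuli, the regions for apoptotic cells 0.0, and the difference for Itgam with apoptotic cells was -0.333. For deposited symbols alone and for this score no share of all genes is given.

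With equal numbers of peaks, the means were 10.0 with LPS and 9.33 with apoptotic cells. No gene was without overlap (0.0 and 0.0), against 1.78% and 1.37% of all genes. The rule for regions was met by 2.0 for LPS and 0.0 for apoptotic cells. The difference then turned for Itgam (-0.333 for both stimuli), Itgal (-0.333, LPS) and Itgav (-0.667, LPS). The narrow class had a mean of 44.0 with apoptotic cells and the wide class 11 with LPS. In the wide class the LPS difference was -0.5 for Itgam, Itgal and Itgb1 and -1.0 for Itga5, and that for apoptotic cells was -0.5 for Itgam. Without LPS 2 and unstimulated 3, 8.0 genes had no overlap with LPS, which then held for 34.6% of all genes.

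Leaving out 1 replicate at a time, the ratio ranged from 2.39 to 4.22 for LPS and 2.11 to 3.89 for apoptotic cells. Genes without overlap with LPS ranged from 1.0 to 7.0 (without LPS 2, where 25.8% of all genes had none). With apoptotic cells they ranged from 3.0 to 5.0 (without apoptotic cells 2, against 19.3% of all genes). The regions ranged from 0.0 (without LPS 1 or LPS 3) to 15 (without unstimulated 3) and from 0.0 (without apoptotic cells 1 or 3) to 2.0 (without unstimulated 3). Leaving out an unstimulated replicate makes this rule easier to meet for every region. No share of all regions is given for any of the alternatives. The LPS difference for Itga5 ranged from -0.167 (without LPS 3) to 2.33 (without LPS 2), and the difference with apoptotic cells for Itgb1 from -0.167 (without replicate 3) to 1.83 (without replicate 2). Of 270 recomputed single-gene differences, 216 kept their sign, 41 became or left 0 and 13 turned. The causes were not tested. Depth is unknown, so whether a peak was missed for lack of reads was not tested.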
